A study of Homo sapiens with 2 samples.

Results

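The 902 transcript clusters described here are regions that the array measures but that carry no gene symbol in the platform's annotation. They were chosen by their measured values: both array values had to be at or above 5.55 (log2), the median of all values and called the floor below, and the 2 arrays had to differ by at least 1.5-fold, which is 0.585 on the log2 scale. They were taken from 16825 unnamed clusters above the floor, 42204 unnamed clusters in all and 67528 clusters on the array. Because this difference selected them, the directions and sizes given below describe the selection and were not tested.

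The cells were IGROV1-R10, a human ovarian carcinoma line selected from IGROV1 for resistance to cisplatin. One culture received a synthetic miR-491-5p duplex and the other a control miRNA duplex, each at 20 nM and 24 hours after seeding, with the transfection reagent INTERFERin. Total RNA (100 ng) from each was measured on 1 whole-transcript array, so each group holds 1 array and no spread between cultures is known. For the control duplex no sequence, and for the harvest no time after transfection, is stated in the labels.

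MicroRNAs are short RNAs that guide Argonaute proteins to messenger RNAs, mainly by pairing of the seed, the bases near their 5′ end, and the bound messenger RNAs are translated less and decay sooner. A transcript cluster is a group of probes placed along 1 stretch of a chromosome strand where exons had been annotated or predicted. Clusters without a symbol can lie in long non-coding RNAs, in unannotated ends of known transcripts, in introns or in duplicated sequence. The microRNA that was added is encoded on human chromosome 9, chr9:20716120-20716141 on the + strand of GRCh38.p14 (RefSeq). Its mature sequence is shown because it is the RNA added to the miR-491-5p culture, with the seed, bases 2 to 8, in capitals.
hsa-miR-491-5p: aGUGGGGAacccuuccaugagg
Sequences and exact positions of the unnamed clusters were not used here, so no member was searched for matches to this seed.

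Of the members, 705 were lower and 197 higher on the miR-491-5p array than on the control array, which is 4.19% and 1.17% of the unnamed clusters above the floor and 5.36% together. Among 14506 clusters with 1 gene symbol above the floor, 527 were lower (3.63%) and 93 higher (0.641%), 4.27% together. The lower share of the clusters past 1.5-fold was 78.2% for the unnamed and 85.0% for the named. It depended on the scaling of the arrays. With differences centred on their median the unnamed split was 469 lower and 255 higher (64.8% lower), and with a loess correction on signal it was 454 and 274 (62.4% lower). The named split moved to 74.1% lower with centring and 72.7% with loess. Past 2-fold there were 110 lower and 38 higher unnamed clusters, beside 115 lower and 7 higher named ones.

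The unnamed clusters above the floor had a median signal of 7.01 on the miR-491-5p array and 7.09 on the control array. Their median difference, miR-491-5p minus control, was -0.08, with the middle 95% between -0.68 and 0.43. The named clusters were brighter, at 8.48 and 8.57, with a median difference of -0.07 and a middle 95% between -0.69 and 0.36. Over all 67528 clusters the median was 5.51 on the miR-491-5p array and 5.59 on the control array. The distributions therefore did not have the same centre, and the lower side of the fold threshold lay nearer to it than the higher side.

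On the miR-491-5p array the lower members had a median of 7.66 (range 5.55 to 15.61), and on the control array 8.41 (6.15 to 16.92). For higher members the miR-491-5p median was 7.64 (6.15 to 14.84) and the control median 6.82 (5.56 to 13.63). The median size of the difference was 0.71 in both directions, and 318 lower members (45.1%) and 91 higher members (46.2%) differed by less than 0.7. Nearly equal shares of both directions thus lay under 0.7, and the tails reached 5.94-fold lower and 8.46-fold higher. Just inside the threshold, 41 unnamed clusters stood at -0.59 and 6 at 0.59. Of these TC06002991.hg.1 had 13.31 on the miR-491-5p array and 13.90 on the control array, TC05002698.hg.1 had 11.88 and 12.47, and TC02003679.hg.1 had 10.65 and 11.24. TC17002448.hg.1 had 7.73 and 7.14, TC03001229.hg.1 had 6.78 and 6.19, and TC0X002191.hg.1 had 6.71 and 6.12. Just outside, 36 stood at -0.58 and 2 at 0.58. TC15002251.hg.1 had 14.08 and 14.66, TC16001242.hg.1 had 13.95 and 14.53, and TC0X001875.hg.1 had 12.71 and 13.29, while TC21000768.hg.1 had 11.36 and 10.78 and TC02002087.hg.1 had 6.68 and 6.10.

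**Figure D1:**
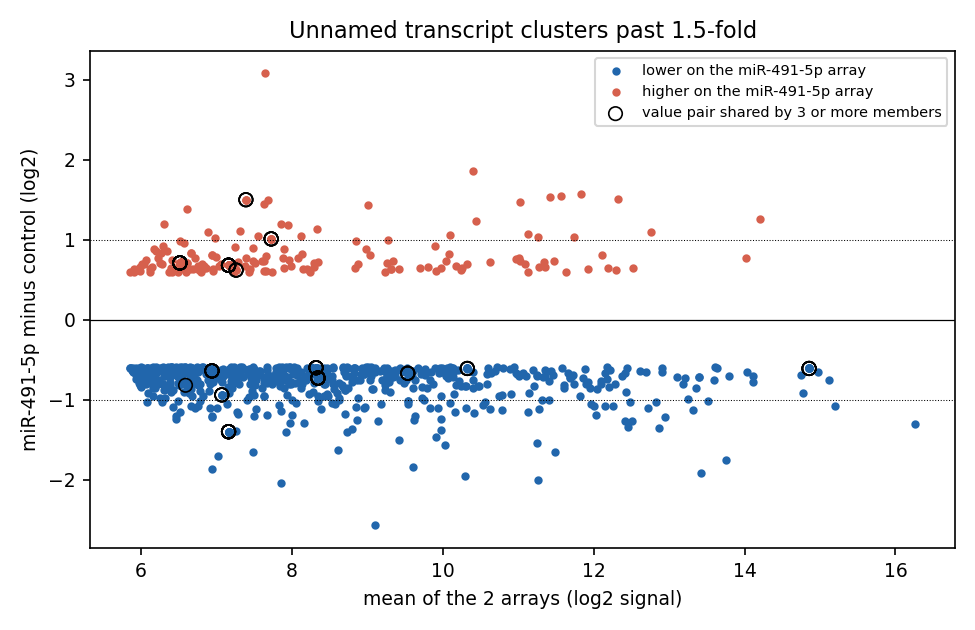
Difference between the arrays (miR-491-5p minus control, log2) against mean signal (log2) for the members, 705 lower (blue) and 197 higher (red), without the 5 on the Y chromosome, with rings around value pairs shared by 3 or more and dotted lines at 2-fold. Points under 0.7 in size are 45.1% of the lower and 46.2% of the higher members, and those past 2-fold, 110 lower and 38 higher, occur over most of the signal range.

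Members were more frequent among brighter unnamed clusters, which is partly fixed by the rule that chose them. When the 16825 clusters were ordered by mean signal and parted into 3 bands of nearly equal number, the dimmest band (mean signal 5.56 to 6.41) held 105 lower and 25 higher members, 2.31% of its clusters. The middle band (6.41 to 8.02) held 250 lower and 108 higher, or 6.4%, and the brightest (8.02 to 19.2) held 350 lower and 64 higher, or 7.38%. A cluster with a mean just above the floor cannot have both values above it and also differ by the required fold. Such clusters lie in the dimmest band and could not be members. How much of the low share of that band comes from this was not measured. The lower share of the members was 80.8% in the dimmest band, 69.8% in the middle and 84.5% in the brightest. Higher members were thus relatively most frequent at intermediate signal. The 41 higher members whose pair of values is shared by 3 or more members, described below, all lie in the middle band. They are not separate observations, and the shares were not recounted without them.

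The largest difference below 0 was that of TC17002651.hg.1, which had 7.82 on the miR-491-5p array and 10.39 on the control array, a difference of -2.57 or 5.94-fold. TC20000814.hg.1 had 6.84 and 8.88 (4.11-fold lower). In ID order it stands between NORAD, a long non-coding RNA that binds Pumilio proteins, with a difference of 0.47, and SLA2, an adaptor protein of lymphocyte signalling, at -0.21. Neither flanking gene shared the size or, for NORAD, the direction of the member. Flanking genes are here the nearest named clusters in ID order, with no limit on the number of positions, so some may not be close. TC07002321.hg.1 had 10.26 and 12.26 (4.0-fold lower), TC06002714.hg.1 had 9.32 and 11.28 (3.89-fold), and TC20001202.hg.1 had 12.46 and 14.38 (3.78-fold). These 3 lie in ID stretches without any named cluster. TC03001184.hg.1 had 6.01 and 7.88 (-1.87), between TMEM40 at -0.15 and IQSEC1, an exchange factor for ARF GTPases, at -0.07.

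The other 9 of the 15 lowest were between 3.58-fold and 2.83-fold lower. TC16001513.hg.1 had 8.69 and 10.53, TC20001408.hg.1 had 12.88 and 14.64, and TC22000564.hg.1 had 6.17 and 7.88, the last between C22orf43 at -0.10 and the pseudogene GUSBP11 at 0.10. TC12002392.hg.1 had 10.66 and 12.31, TC19002315.hg.1 had 6.66 and 8.31, and TC02000846.hg.1 had 7.79 and 9.42, between POTEE at 0.24 and the pseudogene RHOQP2 at -0.01. In TC16001861.hg.1 the values were 9.25 and 10.82, in TC11002725.hg.1 10.48 and 12.02, and in TC07002222.hg.1 8.67 and 10.17. The 15 came from 11 chromosomes, and 13 of them had both values at least 1 log2 unit above the floor. Of the 15, 11 lay in ID stretches without named clusters, so for these no neighbouring gene can be given. The flanking genes that could be given were all within 0.5 of 0.

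The largest difference above 0 belonged to TCUn_gl000223000003.hg.1, on an unplaced contig, with 9.18 on the miR-491-5p array and 6.10 on the control array, a difference of 3.08 or 8.46-fold. On that contig the cluster named ZNF84, a zinc-finger gene, differed by 0.01. TC09001599.hg.1 had 11.33 and 9.47 (3.63-fold higher), between NRON, a long non-coding RNA that restrains the transcription factor NFAT, at 0.02 and RPL12, a ribosomal protein gene, at -0.05. TC15000461.hg.1 had 12.62 and 11.05 (1.57), between the transcription factor gene FOXB1 at 0.00 and RORA-AS2 at -0.19. TC16000276.hg.1 had 12.34 and 10.79 (1.55), between LCMT1P1 at 0.01 and LCMT1, which methylates protein phosphatase 2A, at 0.10. The members were 2.93-fold to 8.46-fold higher while these flanking genes stayed within 0.2 of 0. The distances and signals of these genes are not given here, so they are not read as unchanged adjacent genes.

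TC03002823.hg.1 had 12.19 and 10.65, and TC01004801.hg.1 had 13.08 and 11.57. On chromosome 17, TC17000412.hg.1, TC17000419.hg.1 and TC17000426.hg.1 had the same pair, 8.14 and 6.64 (2.83-fold higher), and lay between CCL4, a chemokine gene, at -0.03 and ZNHIT3 at -0.23. TC07000215.hg.1 had 8.43 and 6.93, between FKBP9 at -0.05 and BBS9, a subunit of the BBSome of primary cilia, at 0.22. TC17001606.hg.1 had 11.76 and 10.29, between LRRC37A4P at 0.21 and MAPK8IP1P2 at -0.24. A further 4 clusters complete the 15 highest. TC11003298.hg.1 had 8.36 and 6.91, and TC11001601.hg.1 had 9.73 and 8.30, between CHST1 at -0.17 and FREY1 at 0.06. TC15001418.hg.1 had 7.31 and 5.92, between CYP19A1, which encodes aromatase, at -0.13 and DMXL2 at 0.12. TC05000672.hg.1 had 14.84 and 13.58 (2.39-fold higher), between TXNDC15 at -0.20 and SLC25A48 at 0.07, and also had the highest mean signal of the higher members. The highest mean signal of the lower members was that of TC01005824.hg.1, with 15.61 and 16.92 (2.48-fold lower). Of the 15 highest 3, against 11 of the 15 lowest, lay in ID stretches without named clusters.

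**Figure D2:**
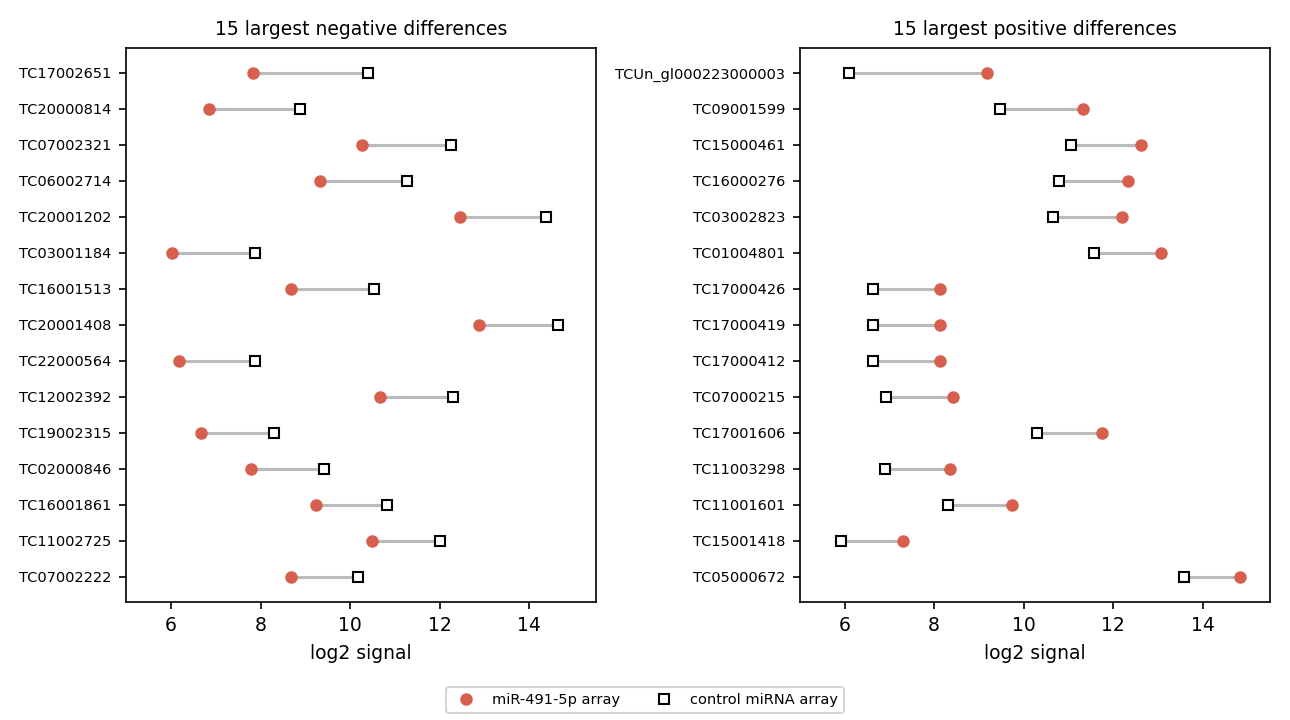
Signal (log2) on the miR-491-5p array (filled circles) and on the control array (open squares) for the 15 members with the largest differences below 0 (left) and above 0 (right), 1 array per group. The gaps run from 5.94-fold to 2.83-fold on the left and from 8.46-fold to 2.39-fold on the right, and 3 chromosome 17 rows on the right have identical values.

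Members on unplaced or haplotype IDs numbered 7 of 143 unnamed clusters above the floor. The 6 lower ones were on alternate haplotypes of chromosome 6. TC6_apd_hap1000116.hg.1 and TC6_dbb_hap3000206.hg.1 both had 8.62 on the miR-491-5p array and 9.30 on the control array, and TC6_qbl_hap6000206.hg.1 had 8.66 and 9.30. TC6_ssto_hap7000186.hg.1 had 8.77 and 9.43, and TC6_cox_hap2000224.hg.1 had 8.77 and 9.39. These 5 have nearly equal values on 5 haplotypes. TC6_mann_hap4000076.hg.1 was dimmer, with 5.55 and 6.16.

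Many members had exactly the same pair of values as other members, to the 2 decimals deposited. A pair shared by 3 or more IDs was found 14 times and covered 98 members (10.9%), 57 of the lower (8.09%) and 41 of the higher (20.8%). Among all unnamed clusters above the floor, 2704 IDs (16.1%) were in such pairs, beside 1118 (7.71%) of the named. Values can coincide at 2 decimals, more readily where many clusters have similar signal. How often they did was not measured, so these shares are not directly comparable. Counting each pair of values once left 793 members, 638 lower and 155 higher, so that 80.5% were lower. This count also merges pairs shared by only 2 IDs, which can coincide at 2 decimals. Why IDs share values was not tested, and such IDs are not read as separate observations here.

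The most repeated pair, 7.50 on the miR-491-5p array and 6.82 on the control array (1.60-fold higher), was carried by 17 IDs, 13 on chromosome 5 and 4 on chromosome 22. On chromosome 5 they include TC05000312.hg.1 to TC05000315.hg.1 and TC05000322.hg.1 to TC05000324.hg.1, 2 of the 3 longest runs of higher members, between OCLN, a tight junction gene, and PMCHL2. Others on the opposite strand lie between TAF9, a subunit of the general transcription factor TFIID, and NAIP, an inflammasome sensor. The next pair, 6.87 and 6.16, was carried by 13 IDs on 7 chromosomes, 6 of them on chromosome 9. Among the lower members, 7.98 and 8.71 occurred on 12 IDs of chromosome 15, and 6.46 and 7.86 (2.64-fold lower) on 10 IDs of chromosome 17. The pair 14.55 and 15.16 occurred on 6 IDs of 5 chromosomes.

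**Figure D3:**
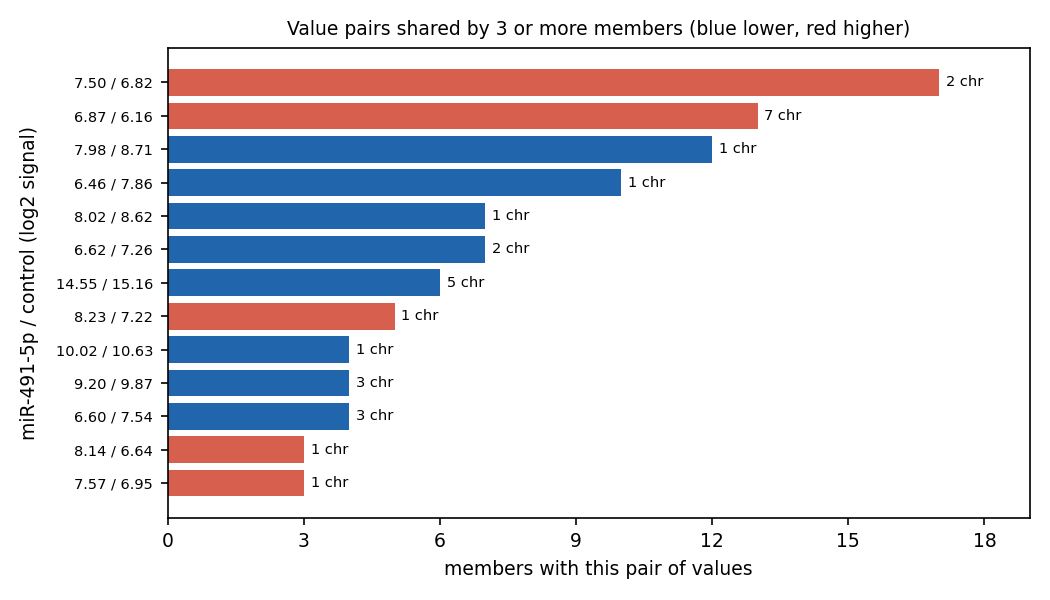
Number of members (horizontal axis) carrying each pair of values, miR-491-5p then control (log2 signal), for 13 of the 14 pairs shared by 3 or more members, with blue for lower, red for higher and the number of chromosomes beside each bar. The most repeated pair, 7.50 and 6.82, is on 17 IDs, and pairs on several chromosomes occur in both directions.

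By chromosome, the share of unnamed clusters above the floor that were members was highest on chromosome 17, at 66 of 806 (8.19%), 45 lower and 21 higher. Its leading member is TC17002651.hg.1, described above. Only 44 different pairs of values stood behind these 66, and 27 of the 66 were in pairs shared by 3 or more members. With each pair counted once the share was 5.8%, below those of several chromosomes, among them 18 (6.64%), 12 (6.44%) and 9 (6.4%). Chromosome 14 had the lowest share of the numbered chromosomes, at 15 of 552 (2.72%), 13 lower and 2 higher, led by TC14001685.hg.1 with 6.97 on the miR-491-5p array and 8.09 on the control array (2.17-fold lower). Chromosome 5 had 22 lower and 24 higher members of 810, and its 24 higher members hold 12 different pairs. On chromosome 15 there were 41 lower and 12 higher members of 864, 22 of the lower in repeated pairs, and the share was 6.13%, or 4.59% with each pair counted once. On chromosome 9, 39 were lower and 19 higher. Over all members 78.2% were lower, and lower members prevailed on every numbered chromosome except chromosome 5. Examples are chromosome 1 (65 lower, 14 higher), chromosome 2 (64 and 7) and chromosome 8 (28 and 2).

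Chromosome 21 had 10 members among 218 unnamed clusters above the floor (4.59%), beside 5.36% over all unnamed clusters. Of the 138 named clusters of chromosome 21 above the floor, 0 passed 1.5-fold, beside 4.27% of all named clusters. This contrast was picked after the values were seen and was not tested. The 22 unnamed clusters of the mitochondrial genome were all above the floor and bright, with ranges of 14.63 to 19.14 (miR-491-5p array) and 14.64 to 19.02 (control array), and 0 were members. Their differences ran from -0.41 to 0.24, with a median of 0.06. Of the 72 unnamed Y-chromosome clusters above the floor, 5 were members (6.94%), beside 5.36% over all unnamed clusters. The cells are from an ovarian carcinoma, and whether these IDs measure Y-chromosome transcripts was not tested.

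**Figure D4:**
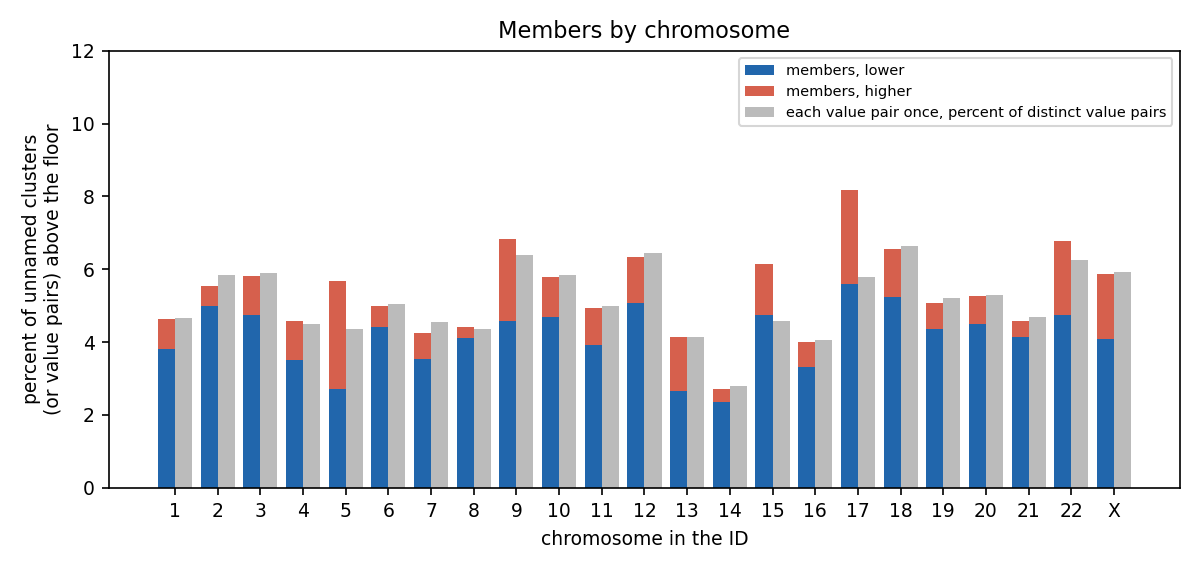
Members as a percent of the unnamed clusters above the floor on each chromosome, lower and higher apart, with the percent of different value pairs beside them. Chromosome 17 is highest at 8.19% and is 5.8% with each pair of values counted once, and chromosome 14 is at 2.72%.

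Where strands could be checked, the IDs of a chromosome run along the + strand and then the - strand: RefSeq's strand matched the position of the ID for 14468 of 14583 named clusters (99.2%). Chromosome 8 was not checked. A long stretch in which no cluster has a symbol follows on each chromosome. All other clusters, outside short closing stretches after it, are counted with the stretches with names. These hold 8603 unnamed clusters above the floor, among them the 22 mitochondrial ones, which have no named cluster above the floor beside them. Of the 8603, 467 were members (5.43%), 356 lower and 111 higher. In the stretches without names, 433 of 8098 were members (5.35%), 348 lower and 85 higher. Both kinds of stretch thus gave members at nearly the same rate. Past 2-fold there were 47 lower and 24 higher members in the stretches with names, and 63 lower and 14 higher in those without. This difference was not tested. In the stretches with names, 10 of these lower members share 1 pair of values, and of the higher members 3 share another pair and 5 a further one. A further 2 members were in the short closing stretches.

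Members in stretches with names, with the 2 in closing stretches, were compared with the genes next to them in ID order, where a member was called near a gene if a named cluster past 1.5-fold stood within 3 positions. Of these 469 members, 43 were near 1 or more, 38 near a gene with a difference of the same sign and 5 near one of opposite sign. All 36 lower members that were near a gene were near a lower gene, and 0.0% had a gene of opposite sign, beside 1.27% of the other unnamed clusters below 0. Named clusters past 1.5-fold were themselves 85.0% lower. Of lower members 10.1% were near a gene of the same sign, beside 6.09% of the other 5423 unnamed clusters with differences below 0. Of higher members 1.79% were near a gene of the same sign, beside 1.57% of the other 2676 clusters above 0. The 38 stood near 33 genes, 20 at the very next ID, with 12 on the gene's 3′ side, 25 on its 5′ side and 1 unknown. For 274 lower and 64 higher members a named cluster above the floor, past 1.5-fold or not, stood within 3 positions. The nearest had a median difference of -0.10 for these lower members, -0.04 for these higher members and -0.06 for 6551 other unnamed clusters. Most of these members therefore stood beside genes that differed little, and the other members are not covered.

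The largest member with a same-sign neighbour was TC02001099.hg.1, with 9.28 on the miR-491-5p array and 10.66 on the control array, 2 positions from FAM171B with 10.27 and 10.94. The named cluster between them, ITGAV, an integrin subunit, was at -0.42. TC12002096.hg.1 had 8.99 and 10.24, next to SCARB1, the receptor for high-density lipoprotein, with 10.25 and 11.03. TC07000126.hg.1 had 9.83 and 11.00, next to ITGB8, an integrin subunit that takes part in activating TGF-beta, with 12.57 and 13.35. In these 3 the member differed more than FAM171B, SCARB1 or ITGB8 did, with -1.38, -1.25 and -1.17 against -0.67, -0.78 and -0.78. TC11000334.hg.1 had 8.04 and 9.10 and followed 2 clusters of CD44, the receptor for hyaluronan, with 8.63 and 9.35 in one and 12.56 and 13.43 in the other. TC01002885.hg.1 had 6.20 and 7.15, next to ARHGAP29 with 12.23 and 13.05.

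TC02001980.hg.1 had 8.0 and 8.95, next to RAB11FIP5, an effector of Rab11 in endosome recycling, with 7.02 and 7.61. TC02002050.hg.1 had 10.07 and 10.90, next to POLR1A, the largest subunit of RNA polymerase I, with 10.87 and 11.69. In the next pair of genes the gene differed more than the member. TC19000233.hg.1 had 11.98 and 12.88 (-0.90), near NACC1, a transcriptional regulator, with 10.45 and 11.98 (-1.53), 3 positions away and beyond DAND5 at -0.16. TC01004006.hg.1 had 7.28 and 8.07 (-0.79), next to HEATR1, a factor in ribosomal RNA processing, with 11.60 and 13.06 (-1.46). TC11001426.hg.1 had 6.56 and 7.34, near the microRNA gene MIR4299 at -0.73, with DKK3 at 0.02 between them.

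LINC00152, a long non-coding RNA, had 9.53 on the miR-491-5p array and 10.22 on the control array and stood beside 3 members. TC02002208.hg.1 had 7.15 and 8.11, TC02002209.hg.1 had 6.03 and 6.69, and TC02002210.hg.1 had 10.07 and 11.19. The name is uncertain, since in ID order this cluster lies between BUB1 and ZC3H8, and RefSeq gives LINC00152 as a synonym of CYTOR. The pair of values of TC02002208.hg.1 also occurs at TC02000537.hg.1.

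Another 3 genes, singled out after their values were seen, had 2 same-sign members each. MAP3K5, a stress-activated kinase also known as ASK1, had 9.59 on the miR-491-5p array and 10.66 on the control array. TC06002145.hg.1 on its 3′ side had 6.73 and 7.44, and TC06002147.hg.1 on its 5′ side had 8.63 and 9.24. PPP1R2, an inhibitor of protein phosphatase 1, had 8.89 and 10.15, with TC03002142.hg.1 (7.08 and 7.76) on its 3′ side and TC03002147.hg.1 (5.85 and 6.53) on its 5′ side. In both, the gene and the members on either side had their lower value on the miR-491-5p array. LRCH2, a leucine-rich repeat gene, was higher, with 10.43 and 9.56, as were TC0X001292.hg.1 (11.61 and 10.95) and TC0X001294.hg.1 (7.19 and 6.54) on its 5′ side.

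The start regions of MAP3K5 and PPP1R2 are shown because lower members stand on both sides of each gene in ID order. For PPP1R2 the 5′ member is 3 positions away, beyond APOD, a gene for an apolipoprotein, at -0.13. The MAP3K5 region is chr6:136793042-136793341 and the PPP1R2 region chr3:195543276-195543575, both on the - strand of GRCh38.p14 (RefSeq), from 250 bases before to 50 after the start, with capitals marking the motif GGGCGG, bound by SP1, on either strand.
MAP3K5: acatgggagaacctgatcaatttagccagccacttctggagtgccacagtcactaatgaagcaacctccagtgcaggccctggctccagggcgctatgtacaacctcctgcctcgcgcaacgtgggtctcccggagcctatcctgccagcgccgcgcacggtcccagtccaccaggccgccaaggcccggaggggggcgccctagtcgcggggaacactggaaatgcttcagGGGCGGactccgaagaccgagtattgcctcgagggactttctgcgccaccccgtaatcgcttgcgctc
PPP1R2: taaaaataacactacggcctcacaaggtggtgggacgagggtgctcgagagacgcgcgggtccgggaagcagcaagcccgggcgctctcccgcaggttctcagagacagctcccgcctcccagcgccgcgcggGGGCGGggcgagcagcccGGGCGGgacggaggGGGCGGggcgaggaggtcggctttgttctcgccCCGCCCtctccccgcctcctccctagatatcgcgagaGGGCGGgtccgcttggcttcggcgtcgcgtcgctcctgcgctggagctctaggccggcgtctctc
MAP3K5 has 1 match and 63.3% GC, and PPP1R2 has 5 matches and 71.3% GC. Of 35116 start regions in RefSeq, 45.0% hold GGGCGG, and the median GC content is 58.7%. TGANTCA, bound by AP-1, and CACGTG, bound by basic helix-loop-helix factors, have no match in either, and are held by 7.71% and 7.26% of the start regions. A match describes the letters and shows no binding.

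The 5 members near a gene of opposite sign were all higher near a lower gene. They are 4.46% of the higher members, beside 5.19% of the other unnamed clusters above 0, so such neighbours were no more frequent than in the background. TC22000587.hg.1 had 9.43 on the miR-491-5p array and 8.54 on the control array, near GUCD1 with 10.23 and 11.15, beyond ADORA2A-AS1 at -0.04. TC12003285.hg.1 had 8.27 and 7.50, next to RHOF with 11.11 and 12.13. Both are in a closing stretch, where the order of the IDs along the strands was not checked. TC09000700.hg.1 had 8.70 and 7.98, near TBC1D13, a Rab GTPase-activating protein, with 8.28 and 9.26. The widest gap was at TC12001602.hg.1, with 9.61 and 8.90, near ANKRD52, a regulatory subunit of protein phosphatase 6, with 9.63 and 11.41. TC17001290.hg.1 had 7.26 and 6.65, near the keratin pseudogene KRT18P55 with 8.77 and 9.39.

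**Figure D5:**
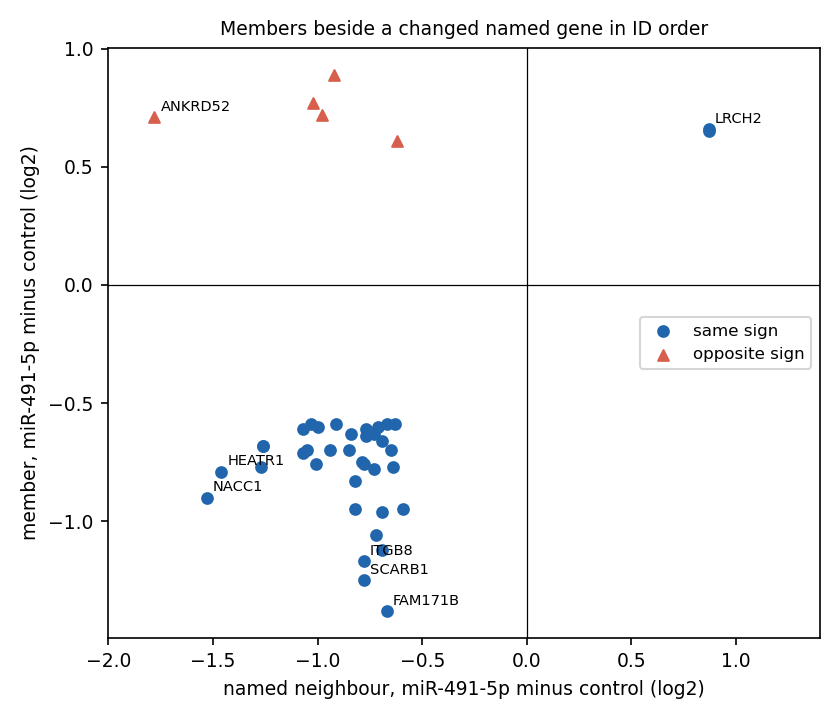
Difference of each member (vertical axis) against that of the named neighbour past 1.5-fold within 3 positions in ID order (horizontal axis), both miR-491-5p minus control (log2), with circles for the same sign and triangles for opposite signs. Of the 43 members, 36 are lower near a lower gene, 2 higher near a higher gene and 5 higher near a lower gene.

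Members also followed each other directly in ID order. Leaving out the Y chromosome, there were 27 runs of adjacent lower members, with 60 members, and 10 runs of adjacent higher members, with 24. No background count stands beside these runs, so they are not read as clustering of members. All 27 lower runs held more than 1 pair of values, against 4 of the 10 higher runs. The longest lower run was TC01005426.hg.1 to TC01005429.hg.1, with 5.78, 6.70, 8.11 and 8.31 on the miR-491-5p array and 6.39, 7.85, 9.29 and 9.40 on the control array. In the run from TC03002268.hg.1 to TC03002270.hg.1 the values were 11.44, 7.10 and 9.28 on the miR-491-5p array and 12.63, 7.92 and 10.39 on the control array. TC02003815.hg.1 to TC02003817.hg.1 had 9.82, 11.04 and 11.33 against 10.42, 11.67 and 12.05. TC09000313.hg.1 to TC09000315.hg.1, between PGM5 and PIP5K1B, had 7.55, 8.48 and 6.87 against 8.24, 9.24 and 7.64. Of the higher runs, TC06001380.hg.1 to TC06001382.hg.1 had 1 pair, 7.57 and 6.95.

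Adjacent members of opposite sign occurred 11 times, 7 of them on chromosome 17. All 7 of these include the repeated pair of 8.02 and 8.62, so they are not separate observations. There TC17000412.hg.1, TC17000419.hg.1 and TC17000426.hg.1, each 2.83-fold higher, are followed by members with 8.02 on the miR-491-5p array and 8.62 on the control array. Differences of adjacent unnamed clusters above the floor with different pairs of values had a Pearson correlation of 0.073 in stretches with names (2266 pairs). In the stretches without names the correlation was 0.14 (3807 pairs). These are descriptions across clusters of the same 2 arrays.

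Of 9 markers of ovarian and Mullerian epithelium, 8 were above the floor, among them PAX8 with 14.59 on the miR-491-5p array and 14.77 on the control array and EPCAM with 13.29 and 12.93, while MSLN had 5.18 and 5.27. Their summed log2 signal was 92.48 and 92.99, but single markers differed in both directions, with KRT18 at -0.60, KRT8 at -0.44 and CDH1 at 0.50. Of the fibroblast, endothelial and leukocyte lists, 1 of 5, 1 of 4 and 1 of 3 markers were above the floor, with sums of 26.45 and 26.51, 25.19 and 27.35, and 14.56 and 15.12. The endothelial sum differed mainly through CDH5, with 11.10 and 13.23, while PECAM1 had 4.51 and 4.35, below the floor. PTPRC, which marks leukocytes, was also below it, with 4.68 and 4.76. The part of these differences in the members' values was not tested. In bulk RNA, fewer cells with a transcript and less of it per cell cannot be told apart.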

How the data were processed

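Total RNA of IGROV1-R10 cells was labelled as biotinylated single-strand cDNA and hybridised to whole-transcript arrays, 1 per group. Each array has 1 column of deposited log2 signals with 2 decimals. Per the submitters' processing notes the authors used RMA, whose version, like the array's genome build, is not given in the sources used here. The log base is taken from RMA. Values reached 19.22 on the miR-491-5p array and 19.18 on the control array, above the usual range of scanner signals, and the reason is unknown here. Scanner intensities were not used here. The number of arrays limits the precision, and no test was made.

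Gene symbols came from GEO's platform annotation, which can be old. Of 67528 clusters 23781 had 1 symbol, 1543 several and 42204 none. Differences are miR-491-5p minus control as deposited, and folds are powers of 2 of them. Neighbours were read from the order of the IDs, and genes are named as neighbours only. Alternatives were median centring, loess (span 0.3), other floors, a 2-fold threshold, other windows and each value pair counted once. The counting was tested on simulated data.

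Text names the 15 largest members in each direction, those on unplaced or haplotype IDs, the 12 largest with a same-sign and 5 with an opposite-sign neighbour, the 3 longest runs in each direction with ties, the members at the threshold, the brightest, and the leaders of the chromosomes with the highest and lowest shares. Members and lists were chosen with earlier results of these data known. Sequences are from RefSeq (GRCh38.p14), which held start regions for MAP3K5 and PPP1R2. Work used Python 3.11.15, numpy 2.4.6, pandas 2.3.3, scipy 1.17.1, statsmodels 0.14.6 and matplotlib 3.10.9.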

Additional observations from a re-analysis of the deposited data

Results flagged for a closer look

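A further 9 unnamed clusters were at least 2-fold higher on the miR-491-5p array while the control array was below the floor, so they are outside the 902 members. Each rests on 1 array per group, and a value below the floor may carry little signal. TC15001009.hg.1 had 7.10 on the miR-491-5p array and 3.34 on the control array, a difference of 3.76, larger than that of any member. TC14001417.hg.1 had 5.94 and 4.42 (1.52), TC15001896.hg.1 had 5.64 and 4.32 (1.32), and TC12001198.hg.1 had 6.68 and 5.40 (1.28). TC11001614.hg.1 had 6.16 and 4.94 (1.22), TC14000530.hg.1 had 6.60 and 5.46 (1.14), and TC05003353.hg.1 had 6.45 and 5.42 (1.03). TC15001949.hg.1 had 6.18 and 5.17 (1.01), and TC08001612.hg.1 had 5.68 and 4.68 (1.0). In the other direction, 23 unnamed clusters were at least 2-fold lower with the miR-491-5p array below the floor.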

How the results depend on the processing

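Leaving out a replicate would empty a group. No paired analysis was possible because the only 2 arrays are of different groups. Over clusters above the floor the median difference was -0.07, and centring on it or a loess correction gave 469 and 454 lower members in place of 705, with the lower share of 78.2% at 64.8% and 62.4%. All of these lower members were among the 705, and all 197 higher members stayed. For centring this was fixed in advance, since it raises every difference by the same amount, so it shows no stability. Of the named members 33 stayed past 1.5-fold with centring and 3 did not, and 32 and 4 with loess. Those that did not were haplotype members. Without a floor there were 1268 lower and 346 higher, at 2-fold 110 and 38 (74.3% lower), and with the floor raised by 1 there were 124 higher. The 38 members near a same-sign gene became 20 within 1 position, 78 within 10 positions, 11 with the gene past 2-fold and 25 with centring. With the floor raised, chromosome 14 had 8 members in place of 15 and chromosome 5 had 29 in place of 46. The median difference of unnamed clusters was -0.10 with either array above the floor, in place of -0.08. Lower runs were 17 with centring in place of 27, and 4 of the 10 higher runs held more than 1 pair of values. The alternatives that count value pairs once were chosen after seeing the data. The cause of these changes was not tested. Signal over background is unknown, so values near the floor are the least certain.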
